A study of Mus musculus with 2 samples.

Results

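The 8 genes described here are S100a8 and S100a9, the calgranulins, their relative S100a11, and 5 further transcripts of mature mouse neutrophils, Retnlg, G0s2, Wfdc21, Stfa2l1 and Asprv1. They were taken by name out of 32228 genes counted, with no threshold on a measured value. They were followed through CD45+ cells of the colonic lamina propria (LP) by gate and by library. The study sorted live (7-AAD-) CD45+ cells from C57BL/6 mice (C57BL/6 J in the study's methods) that had drunk 2.5% dextran sulfate sodium (DSS), which injures the colonic epithelium, for 7 or 8 days. It pooled 5 WT mice into 1 library and 5 Ring1aKO mice, a whole-body knockout of the Polycomb gene Ring1a, into another, both with 10× Genomics 3′ chemistry. The labels give an age of 8 to 10 weeks and the study's methods 8 to 12 weeks, and littermates were sex-matched. With 1 library per group there was no replicate, so no test was made, and genotype, pool of mice and library cannot be told apart. Every interval below is a 95% interval that covers counting error only. It is exact, except for the log2 ratios of neutrophil shares, where it is a normal approximation.

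Neutrophils are short-lived phagocytes that enter the inflamed colon from the blood. S100a8 and S100a9 encode the subunits of calprotectin, a calcium- and zinc-binding protein that makes up much of the neutrophil cytosol and is measured in stool as a marker of intestinal inflammation. Extracellular calprotectin can act on TLR4. The granule proteins of neutrophils are made early, in the marrow, whereas most of the transcripts listed here are typical of later stages.

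The matrices held every barcode, and a unique molecular identifier (UMI) stands for a counted transcript. The library labelled WT had 74414511 UMIs and the Ring1aKO library 81862096. After removal of barcodes under 500 UMIs, under 200 genes or with 5% or more mitochondrial UMIs, 6262 and 8474 barcodes were kept, with a median of 6108.5 and 4825 UMIs. Of these, 15 barcode sequences occurred in both libraries, and none of them was in the neutrophil gate of either. Ring1, the gene disrupted in the knockout, was at 13.4 CPM (counts scaled to 1000000 UMIs, 12.5 to 14.3) in the WT library and 11.9 (11.1 to 12.7) in the Ring1aKO library, a log2 ratio of -0.17 (-0.31 to -0.03). A 3′ count does not show a disruption further upstream, so Ring1 checked neither label, and WT and Ring1aKO below are the names on the labels. All log2 ratios are of the Ring1aKO library over the WT library.

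A barcode was called a neutrophil when S100a8 and S100a9 together held at least 5% of its UMIs. This gave 192 barcodes labelled WT and 224 labelled Ring1aKO, or 3.07% (2.65 to 3.52) and 2.64% (2.31 to 3.01) of those kept. The log2 ratio of these shares was -0.21 (-0.49 to 0.06). B and plasma cells took unequal parts of the libraries, and among the other barcodes the neutrophil share was 4.52% and 5.91%, a log2 ratio of 0.39 (0.12 to 0.66). The sign of the difference in share therefore depended on the denominator. The lowest calgranulin share inside the gate was 5.02% and 5.48%, and the highest outside it was 4.93% and 4.91%. There were 12 barcodes in each library between 4% and 5%, and 6 and 9 between 5% and 6%.

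The gate was checked against 5 neutrophil genes that are not on the list. Csf3r, the receptor of granulocyte colony-stimulating factor, had a UMI in 90.6% of the WT and 92.0% of the Ring1aKO neutrophils. Cxcr2, the receptor for neutrophil-attracting chemokines, had 1 in 66.1% and 67.0%, and the gelatinase gene Mmp9 in 78.6% and 85.7%. Il1r2 and Lrg1 were found in 83.0% to 92.9% of them. At least 2 of the 5 genes were detected in 94.8% and 94.6% of the neutrophils, so most barcodes in both libraries passed this check. It was also passed by 36.2% of the WT and 39.9% of the Ring1aKO monocytes gated below. Under 0.5% calgranulin UMIs, 472 of 6000 and 267 of 8121 barcodes passed it. The check is therefore not specific to neutrophils. Many barcodes just under the gate passed it too. At 4% to 5% calgranulin UMIs, 11 of 12 WT and 10 of 12 Ring1aKO barcodes had at least 2 of the 5 genes. At 2% to 4% the numbers were 20 of 22 and 23 of 35. Such barcodes count among the other gates below. Markers of other cells were also present. All 7 B cell markers were detected in both libraries, and their summed level was 92.8 CPM in the WT and 331 CPM in the Ring1aKO neutrophils. Of 5 plasma cell markers Tnfrsf17 was at 0 in the WT library, and the summed level was 549 and 2590 CPM. All 5 monocyte markers were detected, at a summed 313 and 338 CPM. Of 4 NK cell markers 3 were at 0 in each library, and of 7 dendritic cell markers 5 and 4 were. The level of Igkc, a light chain that neutrophils do not make, was 2.52% and 17.5% of its level in barcodes under 100 UMIs.

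S100a8 and S100a9 lie next to each other on chromosome 3 of GRCm38, on opposite strands. S100a8 (ENSMUSG00000056054) spans 90668978 to 90670035 and S100a9 (ENSMUSG00000056071) 90692632 to 90695721, and the gap between them is 22596 bases. Retnlg (ENSMUSG00000022651, chromosome 16, 48872621 to 48874496) and Stfa2l1 (ENSMUSG00000059657, chromosome 16, 36156811 to 36161953) differed most between the libraries, in opposite directions. The promoters of these 4 genes are shown because the former pair varied together from cell to cell and the latter pair moved apart between the libraries. Each is the RefSeq window of 250 bases before to 50 bases after the transcription start on GRCm38.p6, read 5′ to 3′ on the strand of the gene. The windows are chr3:90668821-90669120 (plus strand), chr3:90695672-90695971 (minus strand), chr16:48872358-48872657 (plus strand) and chr16:36156561-36156860 (plus strand). Capitals mark matches on either strand to TTNNGCAA, a core of C/EBP sites, to GAGGAA, a core of ETS factor sites such as those of PU.1, or to TATAAA, the TATA box.
S100a8: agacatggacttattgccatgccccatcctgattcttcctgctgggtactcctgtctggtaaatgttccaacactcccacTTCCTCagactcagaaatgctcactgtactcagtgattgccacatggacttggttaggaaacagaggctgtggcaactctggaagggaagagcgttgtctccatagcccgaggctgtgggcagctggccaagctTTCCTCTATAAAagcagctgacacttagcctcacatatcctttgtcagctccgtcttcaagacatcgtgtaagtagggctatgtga
S100a9: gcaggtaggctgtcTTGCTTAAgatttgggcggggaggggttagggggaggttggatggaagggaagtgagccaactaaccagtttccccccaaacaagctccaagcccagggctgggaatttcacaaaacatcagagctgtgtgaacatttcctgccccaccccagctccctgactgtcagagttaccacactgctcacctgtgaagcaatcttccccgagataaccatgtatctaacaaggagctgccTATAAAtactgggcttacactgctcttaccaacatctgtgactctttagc
Retnlg: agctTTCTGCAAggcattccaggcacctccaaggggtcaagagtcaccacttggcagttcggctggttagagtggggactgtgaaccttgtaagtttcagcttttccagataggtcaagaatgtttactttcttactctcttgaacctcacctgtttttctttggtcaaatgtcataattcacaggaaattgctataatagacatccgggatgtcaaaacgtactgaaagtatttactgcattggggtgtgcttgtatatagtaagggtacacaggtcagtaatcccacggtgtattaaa
Stfa2l1: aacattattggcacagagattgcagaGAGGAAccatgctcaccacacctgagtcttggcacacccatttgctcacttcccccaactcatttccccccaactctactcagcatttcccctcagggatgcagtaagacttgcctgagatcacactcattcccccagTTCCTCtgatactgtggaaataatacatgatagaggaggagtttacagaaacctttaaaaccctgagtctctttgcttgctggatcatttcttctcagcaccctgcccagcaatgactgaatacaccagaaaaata
S100a8 held 2 GAGGAA matches on the minus strand and a TATAAA match 30 bases before the start, next to 1 of them without overlap. S100a9 held a TTNNGCAA match 236 bases before the start and TATAAA at base 1 after it. Retnlg held 1 TTNNGCAA match, 246 bases before the start, and Stfa2l1 held 2 GAGGAA matches. Such matches are common, with TTNNGCAA in 10.8%, GAGGAA in 28.3% and TATAAA in 13.6% of 32851 RefSeq promoter windows of the same length. They are descriptions of these letters and do not show that a factor binds. The table held a window for 7 of the 8 genes, and none for Wfdc21.

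S100a8 and S100a9 chose the gate, so their height in it is a description. S100a8 stood at 65300 CPM (64765 to 65839) in the WT and 80289 CPM (79785 to 80795) in the Ring1aKO neutrophils. S100a9 stood at 88933 CPM (88308 to 89561) and 108383 CPM (107797 to 108972). Both were higher in the Ring1aKO library by a similar step, with log2 ratios of 0.30 (0.28 to 0.31) and 0.29 (0.27 to 0.30). Per cell, S100a8 ranged from 28.2 to 2464 UMIs per 10000 UMIs of the barcode with a median of 604 in the WT library, and from 103 to 2503 with a median of 816 in the Ring1aKO library. S100a9 ranged from 277 to 2692 with a median of 858, and from 270 to 2913 with a median of 1107. The groups overlapped over most of their range, and 67.9% (S100a8) and 68.3% (S100a9) of the Ring1aKO neutrophils lay above the WT median. Together the calgranulins made up 15.4% of all UMIs in the WT and 18.9% in the Ring1aKO neutrophils, and the 8 genes made up 18.2% and 23.0%. Over the kept barcodes, 91.6% and 93.2% of all S100a8 UMIs and 91.0% and 92.3% of all S100a9 UMIs lay in the gate, which held 1.41% and 1.74% of all UMIs.

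Outside neutrophils the calgranulins were found at low levels in every class. Barcodes with no leading marker list came next, with S100a8 at 826 CPM in the WT and 1431 CPM in the Ring1aKO library. In monocytes S100a8 was at 158 and 465 CPM, 414 and 173 times below the neutrophils, and in the WT library this interval overlapped with that of epithelial or stromal barcodes at 134 CPM. The lower gates could mostly not be ordered: in the WT library the intervals of B, ILC, plasma, dendritic, NK and macrophage gates overlapped from neighbour to neighbour between 46.8 and 17.1 CPM, and in the Ring1aKO library those of plasma, NK, T, ILC, epithelial or stromal and dendritic gates did between 61.0 and 15.6 CPM. In macrophages S100a8 had 12 and 93 UMIs, or 17.1 and 127 CPM. In T cells it was at 72.4 and 34.2 CPM, whereas the share of T cells with a UMI, after thinning each cell to 1000 UMIs, was 1.83% and 3.11%. Those measures went in opposite directions, and no order was read from them. Barcodes with fewer than 100 UMIs, which hold cell-free RNA, had S100a8 at 1137 and 1507 CPM, above its level in each gate other than neutrophils.

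**Figure D1:**
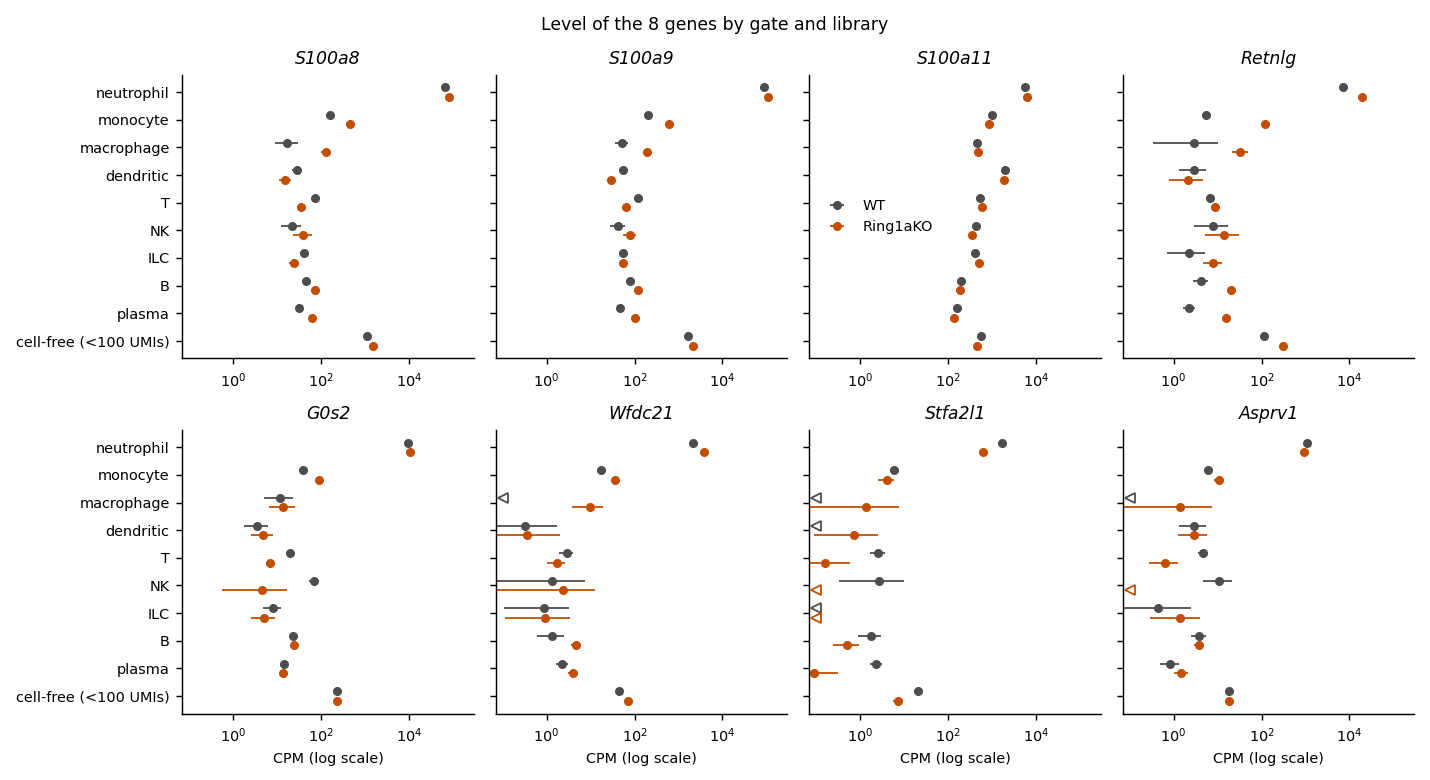
Level of each of the 8 genes (CPM, log scale, horizontal axis) in 9 gates and in barcodes under 100 UMIs (vertical axis), in the WT library (grey) and the Ring1aKO library (orange), with bars for the exact 95% Poisson interval and an open triangle at the left edge for a level of 0. Neutrophils are at the top of the scale for each gene. In the other gates drawn S100a11 reaches the highest level, with 2026 and 1864 CPM in dendritic cells. In barcodes under 100 UMIs S100a9 is at 1656 and 2096 CPM and S100a8 at 1137 and 1507 CPM.

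S100a11 (ENSMUSG00000027907, chromosome 3, 93520488 to 93526287) is another calcium-binding S100 protein and is made by many cell types. Its level in neutrophils was 5648 CPM (5491 to 5808) in the WT library and 6244 CPM (6104 to 6387) in the Ring1aKO library, a log2 ratio of 0.14 (0.09 to 0.20). Per cell the median was 52.2 and 63.1 UMIs per 10000, in ranges of 0 to 242 and 0 to 275 that overlapped widely. Most S100a11 lay outside the gate. Neutrophils held 12.3% and 21.5% of its UMIs, monocytes 34.8% and 14.6%, T cells 14.8% and 21.5%, and dendritic cells 15.9% and 14.6%. The monocyte gate held 1115 and 521 barcodes. The last 400 bases of S100a11 share 53.5% of their 31-base words with other genes, S100a11-ps among them, so its counts depend on how such reads were assigned.

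Retnlg, resistin-like gamma, encodes a small secreted protein of granulocytes. It showed the highest ratio of the 8 genes. In neutrophils it was at 7058 CPM (6883 to 7237) in the WT library and 19310 CPM (19063 to 19559) in the Ring1aKO library, 2.74 times as high. The log2 ratio was 1.45 (1.41 to 1.49). Per cell, WT neutrophils had from 0 to 474 Retnlg UMIs per 10000 UMIs with a median of 42.6, and Ring1aKO neutrophils from 0 to 841 with a median of 156. The cells overlapped widely, but 83.0% of the Ring1aKO neutrophils lay above the WT median. The difference lay more in the height than in the number of cells with a transcript: after thinning to 1000 UMIs a Retnlg UMI was found in 83.8% (77.5 to 89.0) of 173 WT and in 93.0% (88.7 to 96.0) of 213 Ring1aKO neutrophils. The tenth of cells with the most Retnlg held 41.7% and 32.1% of its UMIs.

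Wfdc21 (ENSMUSG00000051748, chromosome 11, 83746940 to 83752642) encodes a small secreted protein of the whey acidic protein (WAP) family. Its level was 2133 CPM (2037 to 2232) in the WT and 3856 CPM (3746 to 3969) in the Ring1aKO neutrophils, a log2 ratio of 0.85 (0.78 to 0.93). Per cell it ranged from 0 to 94.1 UMIs per 10000 with a median of 17.9 in the WT library, and from 0 to 137 with a median of 36.4 in the Ring1aKO library. The ranges overlapped, and 82.1% of the Ring1aKO neutrophils were above the WT median. After thinning, 74.0% (66.8 to 80.4) and 88.7% (83.7 to 92.6) of neutrophils had a UMI. The share of cells above the WT median was close to that of Retnlg, and the log2 ratio was smaller.

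Stfa2l1 went the other way. It belongs to the stefin A genes, which encode cytosolic inhibitors of cysteine proteases such as cathepsins. It was at 1722 CPM (1637 to 1812) in the WT and 627 CPM (583 to 673) in the Ring1aKO neutrophils, a log2 ratio of -1.46 (-1.59 to -1.33). A UMI was found in 61.5% and 38.8% of neutrophils, and after thinning in 52.6% (44.9 to 60.2) and 26.3% (20.5 to 32.7). Per cell it ranged from 0 to 162 UMIs per 10000 with a median of 4.63 in the WT library, and from 0 to 116 with a median of 0 in the Ring1aKO library, where 28.6% of the neutrophils were above the WT median. With neutrophils of at least 1000 UMIs thinned to that depth and summed, the log2 ratio was -0.97, just under 2-fold. The last 400 bases of its transcript share 38.9% of their 31-base words with other genes, Stfa2 and Cstdc4 (listed as Gm5483) among them. Its counts therefore depend on how such reads were assigned.

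G0s2 and Asprv1 differed little. G0s2 (ENSMUSG00000009633, chromosome 1, 193272161 to 193273217, overlapped on the other strand by Lamb3) inhibits the lipase Pnpla2 and so restrains the breakdown of stored fat. It was at 9713 CPM (9507 to 9922) and 10326 CPM (10146 to 10509), a log2 ratio of 0.09 (0.05 to 0.13). Asprv1 (ENSMUSG00000033508, chromosome 6, 86628164 to 86629710), an aspartic protease known from skin, was at 1096 CPM (1027 to 1167) and 920 CPM (867 to 976), a log2 ratio of -0.25 (-0.38 to -0.13). The medians per cell were 74.5 and 81.9 UMIs per 10000 for G0s2 and 3.72 and 1.52 for Asprv1. After thinning, Asprv1 was found in 41.6% (34.2 to 49.3) of WT and 35.7% (29.3 to 42.5) of Ring1aKO neutrophils, with overlapping intervals.

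**Figure D2:**
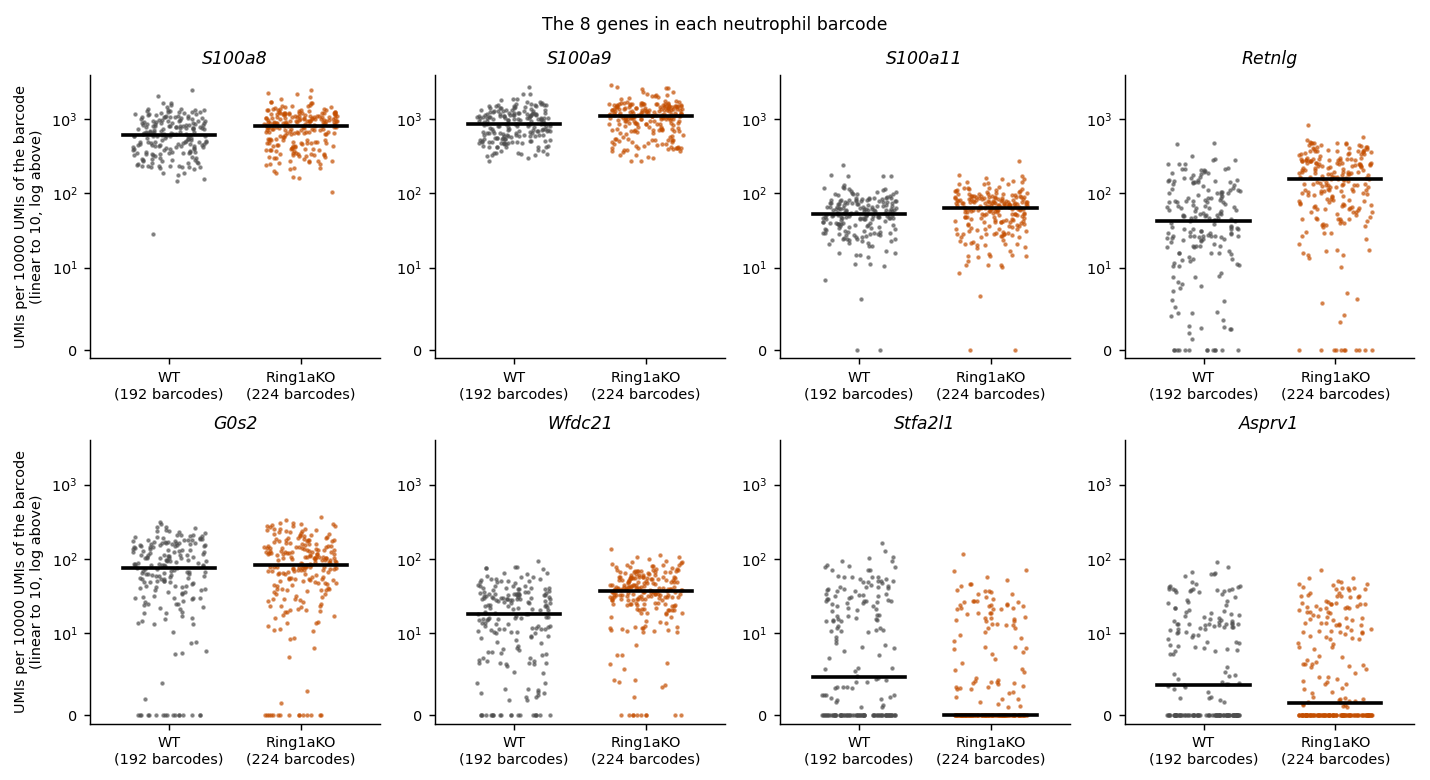
UMIs of each gene per 10000 UMIs of the barcode (vertical axis, linear up to 10 and log above) for each of 192 neutrophils labelled WT and 224 labelled Ring1aKO, with 1 point per barcode and a black line at the median. The clouds overlap for each gene; the median of Retnlg is at 42.6 and 156, and that of Stfa2l1 at 4.63 and 0.

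Of the 8 genes, 1 was at least 2-fold higher (Retnlg) and 1 at least 2-fold lower (Stfa2l1) in the Ring1aKO library. Over all 2696 genes with at least 50 UMIs in the gate, 10.7% were past 2-fold, 2.56% higher and 8.16% lower. The median log2 ratio was 0.22 over the 8 genes and -0.14 over all genes. Ratios as low as that of Stfa2l1 or lower were found for 2.82% of all genes, and 98.96% of all genes were below Retnlg and 95.9% below Wfdc21. Scaling by the median of ratios in place of the summed UMIs raised the log2 ratio of every gene by 0.17, gave Retnlg 1.62, Wfdc21 1.02, G0s2 0.25, Stfa2l1 -1.29 and Asprv1 -0.09, and changed the split of genes past 2-fold from 69 higher and 220 lower to 119 and 146. With a mean over cells the split was 101 and 186, and with the 8 genes left out of the denominator 93 and 174.

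Gates that used no gene of the list gave the same signs for Retnlg and Stfa2l1, but neither is a separate check. Barcodes with a UMI of both Csf3r and Cxcr2 and none of Cd3e or Cd79a, 138 labelled WT and 134 labelled Ring1aKO, had a Retnlg log2 ratio of 1.78, a Wfdc21 ratio of 1.14 and a Stfa2l1 ratio of -1.38. This gate was chosen after the values were seen, and 78.3% and 88.8% of its barcodes were also in the main gate. A wider gate, with at least 3 UMIs and 2 detected genes out of the 5 neutrophil markers, held 496 and 339 barcodes and took in 256 and 109 of the monocyte gate. Of its barcodes 32.5% in the WT and 51.0% in the Ring1aKO library were also in the main gate. The median calgranulin share was 0.0195% and 5.94%, so the mix of cells differed between the libraries. In this wider gate Retnlg was at 2.68, S100a8 at 1.49, G0s2 at 1.23 and Stfa2l1 at -0.20, so Stfa2l1 was not past 2-fold in it. The part of this mix in these ratios was not tested. With neutrophils that carried a UMI of Cd79a, Cd3e or Mzb1 left out, Retnlg was at 1.51 and Stfa2l1 at -1.18.

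Only some of the 8 genes varied together from cell to cell. In cells thinned to 1000 UMIs, the Spearman correlation of S100a8 with S100a9 was 0.84 over 173 WT and 0.84 over 213 Ring1aKO neutrophils. Retnlg and Wfdc21 went with S100a8 less closely, at 0.39 and 0.41 in the WT library and 0.60 and 0.53 in the Ring1aKO library. S100a11 was correlated with S100a8 at 0.37 in the WT and 0.48 in the Ring1aKO library. G0s2, Stfa2l1 and Asprv1 had correlations with S100a8 between -0.03 and 0.13. Cells of a library share its handling, and the gate fixed a minimum of S100a8 and S100a9. Thinned counts of Stfa2l1 and Asprv1 are near 0, while G0s2 kept a UMI in 90.2% and 93.4% of the thinned cells. These values therefore describe the cells only. Stfa2l1 was correlated with its neighbour Cstdc4 at 0.41 and 0.35.

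Related genes in the same neutrophils place the 8 genes among their kind. Of 20 other transcripts of mature neutrophils, all counted in the gate, none was past 2-fold, 16 were lower and 4 higher in the Ring1aKO library, and the median log2 ratio was -0.26. Of all 2696 genes in the gate 60.6% were lower, with a median of -0.14. Il1b, the inflammatory cytokine, was at 23008 and 12704 CPM, a log2 ratio of -0.86 (-0.89 to -0.83). Csf3r was at -0.59 (-0.72 to -0.47), while Pglyrp1, which encodes a peptidoglycan recognition protein, was at 0.52 (0.40 to 0.64). Under the median of ratios 13 of the 20 were lower, with a median of -0.10 beside 0.03 over all genes. In the gate on Csf3r and Cxcr2, themselves on the list, 12 were lower, with -0.03 beside -0.24. Without barcodes of other lineages 16 were lower, with -0.14 beside -0.18. Without neutrophils with a UMI of Ngp, Mmp8 or Cd177, 17 were lower, with -0.19 beside 0.05. The place of the list against all genes thus depended on the setting.

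Transcripts of granule proteins were higher in the Ring1aKO library in part. Of 14 genes listed as granule genes of immature neutrophils, 7 had enough UMIs. Of these, 4 were at least 2-fold higher in the Ring1aKO library and none was as much lower, beside 2.56% higher and 8.16% lower of all genes. Their median log2 ratio was 1.22. Not every gene of the list is particular to such cells. Cybb was at 811 and 604 CPM in monocytes, above its 112 and 89.3 CPM in neutrophils. Ngp, the neutrophilic granule protein, was at 79.1 and 652 CPM, a log2 ratio of 3.03 (2.69 to 3.42). Cd177 was at 29.8 and 179 CPM and the collagenase gene Mmp8 at 168 and 920 CPM, log2 ratios of 2.54 and 2.44. Lcn2, the iron-chelator-binding lipocalin of granules, was at 2261 and 5285 CPM, a log2 ratio of 1.22 (1.15 to 1.30). Genes of the earliest granules stayed near 0, with Elane, Ctsg and Fcnb at 0 UMIs in both libraries and Mpo at 1 and 0. Camp and Ltf, also on the list, were near 0 too and could not be compared. Camp had 2 UMIs in the WT and 9 in the Ring1aKO neutrophils, and Ltf had 4 and 2. The genes that rose therefore do not stand for the whole list. Ngp was found in 11.5% (7.32 to 16.8) of the WT and 46.0% (39.3 to 52.7) of the Ring1aKO neutrophils, and Mmp8 in 30.7% (24.3 to 37.8) and 71.4% (65.0 to 77.2).

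Retnlg and these granule transcripts were high in the same cells. A UMI of Ngp, Mmp8 or Cd177 was present in 38.5% (31.6 to 45.8) of the WT and 77.2% (71.2 to 82.6) of the Ring1aKO neutrophils, and after thinning in 23.1% (17.1 to 30.1) and 59.6% (52.7 to 66.3). Within the WT library, Retnlg was at 9871 CPM in the 74 neutrophils with such a UMI and 4582 CPM in the 118 without. Within the Ring1aKO library it was at 21306 CPM in 173 and 6464 CPM in 51. Retnlg was not alone in this. Wfdc21 was at 2617 CPM with and 1707 CPM without such a UMI in the WT library, and at 4120 and 2163 CPM in the Ring1aKO library. S100a8 was at 70886 and 60382 CPM, and at 84394 and 53877 CPM. Stfa2l1 went the other way, at 1378 and 2026 CPM, and at 590 and 860 CPM. The log2 ratio of Retnlg between the libraries was 1.11 (1.06 to 1.16) among neutrophils with a granule transcript and 0.50 (0.39 to 0.60) among those without. The latter value is below 2-fold, and S100a8 and S100a9 turned to -0.16 (-0.20 to -0.13) and -0.09 (-0.12 to -0.06) there. Stfa2l1 was at -1.22 (-1.39 to -1.06) with and -1.23 (-1.50 to -0.98) without a granule transcript, a similar value on both sides of this split. Wfdc21 was at 0.65 (0.56 to 0.75) with and 0.34 (0.16 to 0.52) without one. Asprv1 was at 0.01 (-0.16 to 0.19) with and -0.74 (-1.05 to -0.47) without one. The split was made after the values were seen, and the cells without such a UMI were also shallower, with a median of 3913.5 and 2965 UMIs against 4790 and 5833. The part that depth plays in it was not tested.

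The stefin genes compared near Stfa2l1 were also lower in the Ring1aKO library, and of these only Cstdc4 was found in many cells. From Stfa2l1 to Stfa3, 298582 bases of chromosome 16 hold the stefin genes named here other than Cstb and Cst3. Of 8 listed stefins and cystatins, 6 had enough UMIs, 4 were at least 2-fold lower and none as much higher, with a median log2 ratio of -1.13, beside 8.16% lower and 2.56% higher of all genes. Cstdc5 (listed as BC100530) was at -1.92 (-2.58 to -1.35), Stfa1 at -1.55 (-1.94 to -1.20), Stfa2 at -1.16 (-1.71 to -0.64) and Cstdc4 at -1.11 (-1.23 to -0.99). Cstdc5 came from 11 and 8 cells, Stfa1 from 9 cells in each library and Stfa2 from 10 and 7. For each of the 3 genes the shares of cells had overlapping intervals, such as 4.69% (2.17 to 8.71) and 4.02% (1.85 to 7.49) for Stfa1. A single WT cell held 82 of the 196 Stfa1 UMIs in the WT library. In contrast, Cstdc4 was found in 47.9% (40.7 to 55.2) of the WT and 28.6% (22.8 to 34.97) of the Ring1aKO neutrophils. Stfa2 and Cstdc4 share sequence with Stfa2l1, so their counts may not be independent of it, depending on how shared reads were assigned. Only the genes that share most were listed, so Stfa1 and Cstdc5 may share sequence with Stfa2l1 too. Of the 2 genes compared at other loci, Cstb was at 0.18 (-0.06 to 0.42) and the cystatin gene Cst3 at -0.70 (-0.90 to -0.51). Under the median of ratios 2 of the 6 and with a mean over cells 1 of the 6 were past 2-fold, and 5 of 6 were lower under both.

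The remaining lists moved less. Among 10 other S100 genes 4 had enough UMIs, and 1 was past 2-fold: S100a4, of cell motility, had 50 and 8 UMIs, a log2 ratio of -2.97 (-4.40 to -2.03). S100a6 was at 0.39 (0.34 to 0.44), and S100a10 and S100a13 were at -0.14 and 0.01. Of 8 genes for receptors and adaptors of calprotectin, 5 had enough UMIs and none was past 2-fold. Tlr4 had 48 and 39 UMIs and a log2 ratio of -0.76 (-1.42 to -0.13), and Cd69, Cd33 and Bsg were at 0.44, -0.18 and -0.15. Of 8 myeloid transcription factors 4 were compared and none was past 2-fold, with Cebpd at 0.45 (0.07 to 0.86), Stat3 at -0.41 (-0.64 to -0.17), Spi1, which encodes PU.1, at 0.35 (0.18 to 0.53) and Cebpb at -0.17 (-0.23 to -0.10). The WAP genes Slpi and Wfdc17 were at -0.34 and 0.25, and Retn, the only other resistin gene compared, was at -0.80 (-1.62 to -0.03) from 33 and 26 UMIs. Retnlg and Wfdc21 thus had higher ratios than the relatives that could be compared. Of 10 genes linked to neutrophil ageing and survival, 6 were higher and 4 lower. Their median log2 ratio was 0.08, beside -0.14 over all genes. None was at least 2-fold higher and 2 were at least 2-fold lower, beside 2.56% and 8.16% of all genes. These 2 were Cxcr4, the receptor that draws aged neutrophils back to the marrow, at -1.15 (-1.37 to -0.94) and Hif1a at -1.01 (-1.31 to -0.72). Itgam was at -0.76 and Hilpda, which like G0s2 inhibits Pnpla2, at 0.84. Under the median of ratios neither Cxcr4 nor Hif1a was past 2-fold, Hilpda was at 1.01, and S100a10 and Bsg turned to 0.02.

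**Figure D3:**
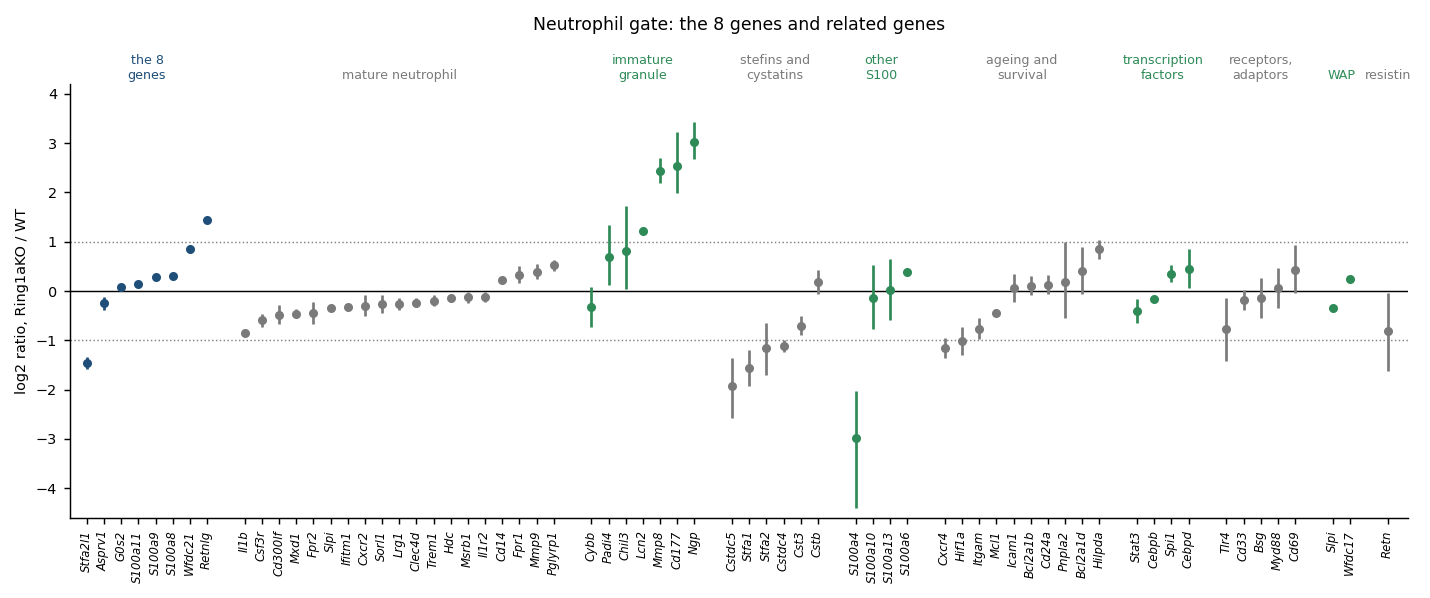
Log2 ratio of the Ring1aKO library over the WT library in the neutrophil gate (vertical axis) for the 8 genes (blue) and for each list of related genes (grey and green, alternating), with genes along the horizontal axis (1 gene of the mature list is not drawn), bars for the exact 95% interval and dotted lines at 2-fold. Ngp, Cd177, Mmp8 and Lcn2 lie above 2-fold with Retnlg, and 4 stefin genes lie below it with Stfa2l1.

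In cell-free RNA the same 2 of the 8 genes were past 2-fold as in neutrophils. In barcodes with fewer than 100 UMIs, which held 9760387 and 8806664 UMIs, Retnlg was at 115 and 301 CPM, a log2 ratio of 1.39 (1.29 to 1.49). Stfa2l1 was at 20.7 and 7.38 CPM, a log2 ratio of -1.47 (-1.91 to -1.08). S100a8, S100a9 and Wfdc21 were at 0.41, 0.34 and 0.63. Both had the same direction as in neutrophils, and 3.8% of 11264 genes were past 2-fold in these barcodes, 0.799% higher and 3.0% lower. S100a11 differed in sign, at -0.31 (-0.37 to -0.26) here and 0.14 in neutrophils. G0s2 and Asprv1 were at -0.01 and 0.06, with intervals that held 0. The granule transcripts did not repeat their ratios, with Ngp at 0.54 (0.32 to 0.77), Mmp8 at 0.77 (0.37 to 1.18) and Cd177 at -0.85 (-1.57 to -0.21). Of 12 compared here, against 7 in neutrophils, none was past 2-fold, and the median was -0.28. The medians are of unlike sets, and other cells hold some of these transcripts. Cybb, for one, was at 811 and 604 CPM in monocytes and at 112 and 89.3 CPM in neutrophils. In such pooled RNA, more neutrophils and more RNA per neutrophil cannot be told apart.

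**Figure D4:**
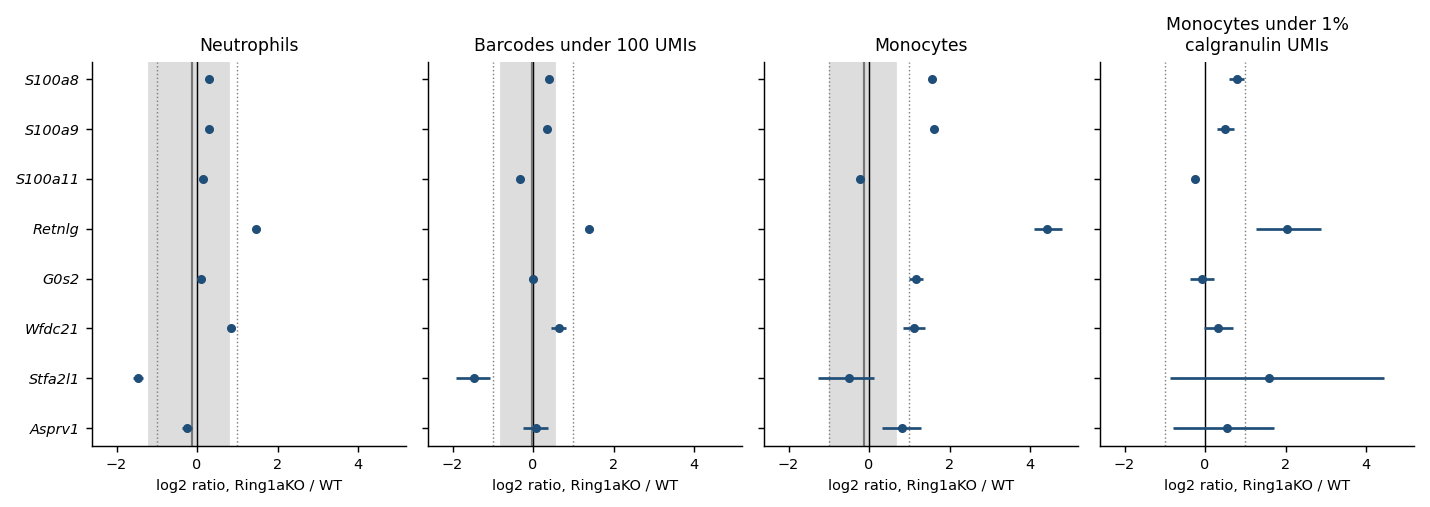
Log2 ratio of the Ring1aKO library over the WT library (horizontal axis) for the 8 genes (vertical axis) in neutrophils, barcodes under 100 UMIs, monocytes, and monocytes with under 1% of UMIs from S100a8 and S100a9. Points have exact 95% intervals, dotted lines mark 2-fold, and the grey band and line give the 5th to 95th percentile and the median of all genes compared, which are not drawn for the last panel. Retnlg is right of 2-fold in each panel, while S100a8 and S100a9 are right of it in the panel of all monocytes only.

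Monocytes were gated on at least 5 UMIs of Lyz2 and 1 of Chil3 or Thbs1, with neutrophils removed, and numbered 1115 and 521. At least 2 of 5 monocyte markers (Ly6c2, Ccr2, Csf1r, Fn1 and Cybb) were found in 96.1% and 93.9% of them. Ly6c2 was at 1285 and 403 CPM, and all 5 neutrophil markers were detected, at a summed 248 and 393 CPM against 73.4 and 74.1 CPM in the other classes. At least 2 of 4 macrophage markers (C1qa, C1qb, C1qc and Mrc1) were found in 28.6% and 45.1% of the monocytes, at a summed 782 and 1655 CPM. At least 2 of 5 plasma cell markers were found in 32.3% and 45.3%, so the gate was mixed, and more so in the Ring1aKO library by these markers. Leaving out monocytes with a UMI of Cd79a, Cd3e or the plasma cell marker Mzb1 lowered the median ratio of the 8 genes, as given in the last section. The part of the macrophage markers in what follows was not tested. In these gates 5 of the 8 genes were at least 2-fold higher in the Ring1aKO library, and none was as much lower, beside 6.78% of 9620 genes past 2-fold, 2.14% higher and 4.64% lower. S100a8 was at 158 CPM (151 to 165) and 465 CPM (447 to 482), a log2 ratio of 1.56 (1.48 to 1.64), and S100a9 was at 1.63 (1.55 to 1.70). Retnlg was at 5.55 CPM (4.37 to 6.94) and 120 CPM (112 to 130), a log2 ratio of 4.42 (4.10 to 4.80).

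A few barcodes held most of the calgranulin UMIs of the monocyte gate. In the WT library 9 monocytes and in the Ring1aKO library 17 had between 1% and 5% of their UMIs from S100a8 and S100a9. They were 0.807% and 3.26% of the monocytes and held 78.8% and 89.4% of the calgranulin UMIs of the gate. Most of the others had few or none, with a median of 0 and 1 UMI of the pair. Without the 9 and 17 barcodes, a choice made after the values were seen, S100a8 was at 40.6 and 70.2 CPM, a log2 ratio of 0.79 (0.60 to 0.98), and S100a9 at 0.51 (0.29 to 0.72). Retnlg then had 22 and 38 UMIs and a log2 ratio of 2.03 (1.26 to 2.88), G0s2 was at -0.06 (-0.37 to 0.22), and Wfdc21 was at 0.33 (-0.04 to 0.68). With at least 10 UMIs of Lyz2 required, S100a9 was at -0.15 and the median of the 8 genes at -0.16 in place of 1.14. Without the 9 and 17 barcodes S100a8, S100a9, G0s2 and Wfdc21 were thus not past 2-fold. These barcodes were chosen by their share of S100a8 and S100a9. The levels of that pair had to fall without them, so the remaining ratios of the pair are a description. After thinning to 1000 UMIs, S100a8 was found in 4.27% (3.15 to 5.64) of WT and 10.04% (7.59 to 12.96) of Ring1aKO monocytes, beside 2.74% (1.90 to 3.80) and 3.20% (2.66 to 3.82) of B cells, which should not make it. The median depth of monocytes was 10296 and 8623 UMIs and that of B cells 4227 and 4336.

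**Figure D5:**
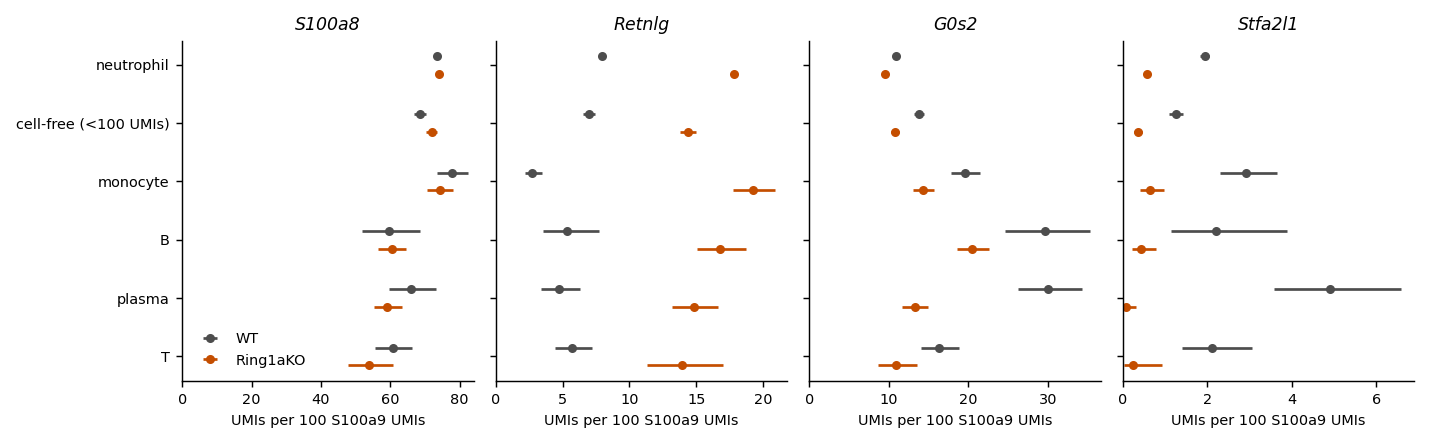
UMIs of S100a8, Retnlg, G0s2 and Stfa2l1 per 100 UMIs of S100a9 (horizontal axes, each starting at 0 with a scale of its own) in neutrophils, barcodes under 100 UMIs, monocytes, B, plasma and T cells (vertical axis), for the WT library (grey) and the Ring1aKO library (orange), with exact 95% intervals. S100a8 is at 53.9 to 77.9 throughout, and Retnlg is higher in the Ring1aKO library in each of the 6 groups.

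Outside the neutrophils and monocytes, 2 of 7 genes compared in B cells (Retnlg and Wfdc21) and 2 of 7 in plasma cells (Retnlg and S100a9) were at least 2-fold higher in the Ring1aKO library. Among all genes 6.52% were past 2-fold in B cells (0.853% higher, 5.66% lower) and 8.76% in plasma cells (1.07% higher, 7.69% lower). Retnlg was at 4.17 and 19.8 CPM in B cells, and at 2.24 and 15.3 CPM in plasma cells, a log2 ratio of 2.74 (2.32 to 3.25). In T cells none of 7 was as much higher and 3 were at least 2-fold lower in CPM (S100a8, G0s2 and Asprv1). Of all genes 3.35% were past 2-fold in T cells, 1.15% higher and 2.2% lower. For S100a8 and G0s2 the thinned share of T cells with a UMI went the other way, with overlapping intervals for each gene. No order of the libraries was therefore read for S100a8 or G0s2 in T cells. The genes named in these 3 gates were below their level in cell-free RNA of the same library.

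Measured against S100a9, Retnlg was higher in the Ring1aKO library inside and outside neutrophils, and mostly lower outside than inside them. Retnlg had 7.94 UMIs (7.73 to 8.15) per 100 S100a9 UMIs in WT neutrophils, 6.95 (6.54 to 7.39) in cell-free RNA, 5.33 (3.54 to 7.74) in B cells, 4.70 (3.403 to 6.33) in plasma cells and 5.70 (4.46 to 7.19) in T cells. In the Ring1aKO library it had 17.8 (17.6 to 18.1), 14.4 (13.8 to 14.98), 16.8 (15.1 to 18.7), 14.8 (13.2 to 16.6) and 13.9 (11.3 to 16.99). The intervals of the libraries did not overlap in these groups, and those of cell-free RNA, plasma and T cells lay below the neutrophil value of their library in both. Over all classes other than neutrophils and monocytes Retnlg had 4.67 (4.07 to 5.33) and 13.2 (12.4 to 14.2). WT monocytes stood lower, with 2.74 (2.15 to 3.44) beside 19.3 (17.8 to 20.9) in Ring1aKO monocytes, and so did barcodes of no leading marker list, with 3.45 (2.59 to 4.52) and 4.80 (3.69 to 6.15). G0s2 did not keep to such a ratio. It had 10.9 UMIs per 100 of S100a9 in WT neutrophils and 29.6 in WT B cells, and neutrophils held 77.1% and 83.9% of its UMIs, with 10.3% and 6.13% in barcodes of no leading marker list.

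Over 11 gates of both libraries, the genes whose level followed the summed calgranulin level most closely were Il1f9, Mirt2, Gm20406, Fpr1 and Chil1, with Pearson correlations of log2(CPM + 1) from 0.974 to 0.952 over 22 points, out of 12575 genes screened. Il1f9 encodes the cytokine IL-36γ and Fpr1 a receptor for formylated bacterial peptides. Among the 8 genes Wfdc21 was at 0.983, Retnlg at 0.958 and S100a11 at 0.709. The 11 gates of a library share its depth and cell-free RNA, and 1 of them was defined by the calgranulins, so these values order genes only. In neutrophils Il1f9 was at 849 and 766 CPM, Fpr1 at 519 and 652 CPM, and Chil1 at 296 and 427 CPM. None of the 5 was past 2-fold between the libraries.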

How the data were processed

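Single-cell 3′ libraries of sorted colonic CD45+ cells were made by the study, 1 from 5 WT and 1 from 5 Ring1aKO mice. The deposited matrices hold raw UMI counts of genes in all barcodes, as the authors' Cell Ranger run wrote them, with no normalization. The matrix header names Cell Ranger 4, the study's methods 3.0.1 with mm10, and the submitters' processing notes 6.0.2 with mm39. Of 32228 gene IDs, 32099 were found in the annotation used here for coordinates, GENCODE vM21 on GRCm38.

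Barcodes were kept with at least 500 UMIs, at least 200 genes and under 5% mitochondrial UMIs. Doublets were kept and no caller was run. Barcodes outside the neutrophil and monocyte gates took the class whose marker list had the highest share of detected genes, with at least 2 detected, and ties were unassigned. UMIs were summed over a gate and scaled to its summed UMIs (CPM). For a log2 ratio 1 UMI was added to each sum, and its interval is exact and conditional on the counts. Shares have exact Clopper-Pearson and levels exact Poisson intervals at 95%. The log2 ratios of neutrophil shares have intervals from a normal approximation. A gene needed at least 50 UMIs in a gate, both libraries summed, to be compared, and past 2-fold means a log2 ratio of at least 1 or at most -1. The calculation was tested on simulated data. The tools were Python 3.11.15, scipy 1.17.1, numpy 2.4.6, pandas 2.3.3 and matplotlib 3.10.9.

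The genes named are the 8 members, Ring1, up to 4 genes per list with the largest absolute log2 ratio in neutrophils, the 5 genes most like the calgranulins over the gates, and markers. The values of 1 gene of the mature neutrophil list are not reported here. Cstb, Cst3 and the granule genes at or near 0 were named after their values were seen. The members, lists and gates were chosen with earlier results of these data known, and 17 alternative settings were planned.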

Additional observations from a re-analysis of the deposited data

Results flagged for a closer look

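Barcodes with at least 100 but fewer than 500 UMIs entered no comparison of the report, and some of them carried the neutrophil signal. S100a8 and S100a9 held at least 5% of UMIs in 92 of 5093 such barcodes in the WT library (1.81%, 1.46 to 2.21) and in 32 of 5197 in the Ring1aKO library (0.616%, 0.422 to 0.868). Their median depth was 174.5 and 231 UMIs. Retnlg was at 7493 and 8730 CPM in them, a log2 ratio of 0.23 (-0.21 to 0.64). This interval lay below the 1.45 of the deeper neutrophils, and why it did was not tested. Stfa2l1 had 26 and 1 UMIs, a log2 ratio of -2.39 (-8.70 to -0.73), and S100a9 was at -0.46 (-0.61 to -0.32).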

How the results depend on the processing

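No paired analysis was possible because each group had 1 library. For the same reason the depth limits counting error only, and nothing measures the spread between mice. In neutrophils Retnlg stayed above 0 under 15 of 15 alternatives, between 0.50 and 2.68, and past 2-fold in 14. Stfa2l1 stayed below 0 in 15 of 15, between -1.46 and -0.20, and past 2-fold in 13. Several of these alternatives rescaled the same counts or kept most of the same barcodes, so they are not separate checks. The values 2.68 and -0.20 came from the gate without members, in which the mix of cells differed between the libraries. The gate on Csf3r and Cxcr2 and the leaving out of barcodes with granule transcripts or 1% calgranulin UMIs were added after the data were seen. The causes of the moves below were not tested.

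Neutrophils were 3.61% and 3.20% of kept WT and Ring1aKO barcodes with the gate at 2%, 2.24% and 2.19% at 10%, 7.92% and 4.0005% with the gate without members, 2.204% and 1.58% with that on Csf3r and Cxcr2, and 2.01% of Ring1aKO barcodes without those of other lineages. They held 96.2% and 96.1% of S100a8 UMIs at 2%, 80.4% and 86.9% at 10%, 85.3% and 76.0% with the gate without members, 65.3% and 57.8% with Csf3r and Cxcr2, 92.2% and 93.6% without other lineages, and 94.03% and 94.5% when thinned. The median log2 ratio of the 8 genes in neutrophils, 0.22 as reported, was 1.35 with the gate without members, 0.46 with Csf3r and Cxcr2, 0.28 without other lineages, 0.30 with the members out of the denominator, 0.38 under the median of ratios, 0.45 with cell-free RNA subtracted, 0.27 when thinned and -0.13 without neutrophils with a UMI of Ngp, Mmp8 or Cd177. In that last setting S100a8, S100a9 and S100a11 turned to -0.16, -0.088 and -0.16, and Asprv1 turned to 0.76 in the gate without members. In monocytes the median, 1.14 as reported, was 1.85 with the neutrophil gate at 2%, 2.46 with the gate without members, 0.61 without other lineages, 1.87 with cell-free RNA subtracted, 0.53 without barcodes of 1% calgranulin UMIs and -0.16 with at least 10 Lyz2 UMIs. There S100a9, G0s2 and Asprv1 turned to -0.15, -0.17 and -1.28. Asprv1 turned to -0.11 with a mean over cells, S100a11 to 0.28 with cell-free RNA subtracted and G0s2 to -0.064 without the barcodes of 1%. Genes past 2-fold in neutrophils, 289 as reported, numbered 916 with the gate without members, 527 with cell-free RNA subtracted (63 higher, 464 lower), 74 when thinned (28 higher, 46 lower), 653 with a minimum of 20 UMIs and 3658 with 1 UMI.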
